A study of Homo sapiens with 6 samples.

Results

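L1CAM and 9 other cell adhesion genes of the immunoglobulin superfamily were followed in NCI-H1975 lung cancer cells before and after resistance to WZ4002. The 10 genes were taken from a fixed list, and every array probe set that the platform annotation assigns to any of them was kept, which gave 21 of 22215 probe sets and covered all 10 genes, of 11963 genes on the array. Of these probe sets 17 are annotated to a single gene, and 4 are annotated to both MCAM and the microRNA gene MIR6756, so their values cannot be credited to MCAM alone. The NCI-H1975 line comes from a human lung adenocarcinoma and carries mutant EGFR, and WZ4002 is a covalent EGFR kinase inhibitor. The parental group was the drug-sensitive line, and the WZR6 group was clone 6, isolated from the same line after growth in rising amounts of WZ4002; both were harvested growing exponentially in medium with 5% serum. Each group held 3 arrays. WZR6 is a single clone, so acquired resistance and descent from a single cell cannot be told apart, and nothing in the labels says whether the 3 samples of a group were separate cultures, so errors may be technical. The genes were selected on the log2 difference between WZR6 and parental arrays, with its values on these arrays already known. Those differences are therefore given as a description. Where a fit over the whole array is quoted for them, its intervals are confidence intervals on the difference, from variances moderated over the whole array. Its calls serve for counts beside those of all probe sets and are not used as support for any difference.

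Immunoglobulin adhesion molecules bind like or unlike partners on neighbouring cells through immunoglobulin domains, to which only some of the families add fibronectin type III domains. L1CAM, CHL1, NRCAM and NFASC form the L1 family, known from axon growth and from the nodes of myelinated nerve, and their cytoplasmic tails bind ankyrins and through them the spectrin cytoskeleton. L1CAM is also shed from the surface by metalloproteases, signals together with integrins and growth factor receptors, and is found in several carcinomas, where it has been linked to invasion. NCAM1 and NCAM2 carry neural cell adhesion and, in the case of NCAM1, polysialic acid. ALCAM and MCAM are found on epithelial tumours, melanoma and endothelium, contactin (CNTN1) is anchored in the membrane by lipid, and neogenin (NEO1) is a receptor for netrins and repulsive guidance molecules.

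The sequence before the transcription start is shown for the 4 genes with a value above the median of the whole array in either group, since these are the members least limited by array background. Each line is the 250 bases before a RefSeq start on GRCh38.p14, 5′ to 3′ on the gene's own strand. The L1CAM window is chrX:153875945-153876194 on the minus strand, that of NEO1 chr15:73051652-73051901 on the plus strand, that of ALCAM chr3:105366659-105366908 on the plus strand and that of MCAM chr11:119317131-119317380 on the minus strand. Capitals mark the E-box (CANNTG), the GC box (GGGCGG) and the cyclic AMP response element (TGACGTCA), each searched on both strands.
L1CAM: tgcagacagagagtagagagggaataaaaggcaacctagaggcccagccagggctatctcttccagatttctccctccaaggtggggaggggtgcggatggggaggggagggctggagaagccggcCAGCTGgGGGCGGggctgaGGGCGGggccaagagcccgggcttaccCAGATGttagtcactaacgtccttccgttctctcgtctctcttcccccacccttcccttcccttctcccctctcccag
NEO1: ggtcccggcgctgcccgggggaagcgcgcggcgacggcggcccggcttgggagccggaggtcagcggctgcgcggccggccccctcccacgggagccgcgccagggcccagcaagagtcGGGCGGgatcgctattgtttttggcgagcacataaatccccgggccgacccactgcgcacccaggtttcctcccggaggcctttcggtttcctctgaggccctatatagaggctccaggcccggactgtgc
ALCAM: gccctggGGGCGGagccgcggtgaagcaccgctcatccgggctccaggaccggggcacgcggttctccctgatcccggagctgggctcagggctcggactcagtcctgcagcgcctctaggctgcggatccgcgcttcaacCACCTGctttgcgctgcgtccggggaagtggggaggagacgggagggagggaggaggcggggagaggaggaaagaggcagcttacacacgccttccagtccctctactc
MCAM: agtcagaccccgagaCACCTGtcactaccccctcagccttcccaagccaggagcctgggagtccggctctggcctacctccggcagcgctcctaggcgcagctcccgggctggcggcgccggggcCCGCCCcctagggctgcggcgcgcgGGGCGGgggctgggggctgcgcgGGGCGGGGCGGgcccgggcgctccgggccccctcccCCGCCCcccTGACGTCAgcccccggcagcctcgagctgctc
A second L1CAM start lies 70 bases upstream of the first. The L1CAM window held 2 E-boxes and 2 GC boxes, and neither E-box had the form CAGGTG or its complement. The NEO1 window held 0 E-boxes and 1 GC box. The windows of ALCAM and MCAM each held 1 E-box, of the form CAGGTG in both, with 1 and 5 GC boxes, and MCAM alone of the 4 held TGACGTCA. Among 35116 windows of the same length over all genes, 61.8% held CANNTG, 17.5% CAGGTG, which is included in CANNTG, 42.6% GGGCGG and 1.65% TGACGTCA. Bases G and C made up 62.4% of the L1CAM window, 71.6% of NEO1, 68.8% of ALCAM and 79.6% of MCAM, against a median of 58.0% over all windows. Windows were found for 9 of the 10 genes, all but NCAM1. There were 16 windows in all, of which 10 held an E-box. By gene, 6 of the 9 had an E-box in at least 1 window, a count not on the same unit as the share of windows. These are matches of letters and carry no statement on binding.

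The arrays gave 1 RMA intensity per probe set, and all values below are log2 of it. A gene or probe set is named called where limma's moderated test between WZR6 and parental arrays gave a Benjamini-Hochberg adjusted p under 0.05 over everything tested. Of all probe sets 41.1% were called, 21.6% higher and 19.5% lower in WZR6. That balance turned under another scaling, cyclic loess, with 4300 probe sets higher and 4776 lower. Of the 21 probe sets of the adhesion genes 8 were called, or 38.1%, with 6 higher and 2 lower, and their median difference was 0.09 against 0.03 over all probe sets. As these genes were picked with the contrast in view, nothing is read from that share. Beyond the L1CAM and NEO1 probe sets, no called difference among the 21 reached 2-fold. The table has no detection calls. For 9 of the 21 probe sets both group means lay below the lower quartile of all values, 5.27, and for 3 more both lay below the median, 7.38, so that background limits what these can show.

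**Figure D1:**
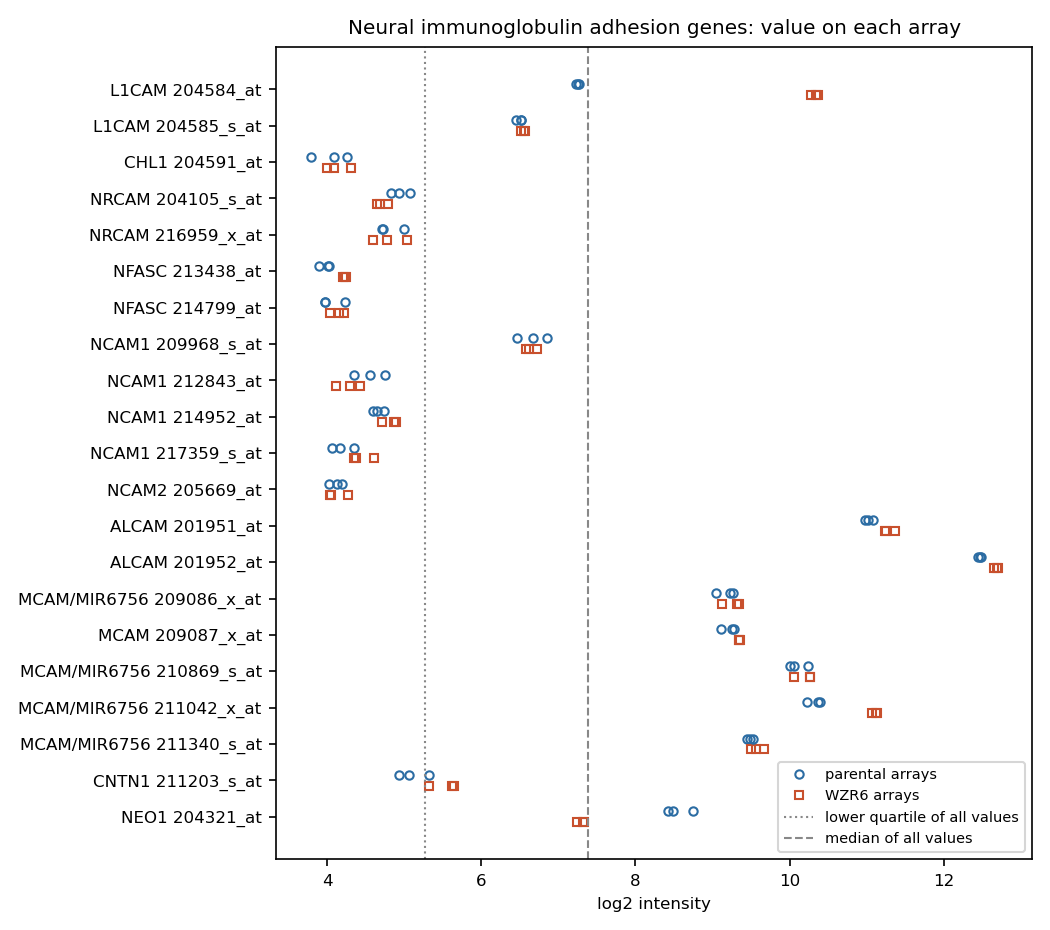
Log2 intensity on each of the 6 arrays for the 21 probe sets of the 10 adhesion genes, parental arrays as open circles and WZR6 arrays as open squares, with the lower quartile (dotted, 5.27) and median (dashed, 7.38) of all values on the arrays. The groups stand far apart for L1CAM 204584_at and for NEO1, while the probe sets of CHL1, NRCAM, NFASC and NCAM2 stay at the dim end in both groups.

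L1CAM, the founder of its family, had by far the widest gap, on the probe set 204584_at. The parental arrays gave 7.27, 7.26 and 7.22, and the WZR6 arrays 10.28, 10.38 and 10.35. All WZR6 arrays were higher than all parental arrays, and the values within a group differed by no more than 0.10. In linear units the geometric mean went from 152 to 1290, which is 8.48-fold higher in WZR6 (95% interval 7.82 to 9.19). The log2 difference was 3.08 ± 0.05 (SE, n = 3 per group). Over the 15 alternative settings that gave it a value, this difference ran from 2.95 to 3.12.

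The other L1CAM probe set, 204585_s_at, did not show that gap. Its parental values were 6.52, 6.51 and 6.45, and its WZR6 values 6.56, 6.51 and 6.56, so the groups overlapped. The difference was 0.05 ± 0.05 (SE), with an interval of -0.06 to 0.16, and both means lay below the median of all values. The suffix _s_at marks a probe set that may detect several transcripts. The file does not say which part of the L1CAM transcript either probe set reads. With L1CAM taken as the mean of both probe sets, the log2 difference was 1.57.

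This split was set beside the gaps between probe sets of other genes on the array. Among 4310 genes with at least 2 probe sets of their own, the highest and lowest differences lay a median of 0.20 apart on the log2 scale, and the 95th percentile of that gap was 0.81. The gap of L1CAM was 3.03, which ranked 8 of 4310. A gap this wide requires a large difference on some probe set. L1CAM was selected on that difference, so its rank is a description only. Of the other adhesion genes with several probe sets of their own, NCAM1 had a gap of 0.53, NRCAM of 0.23, NFASC of 0.17 and ALCAM of 0.05.

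**Figure D2:**
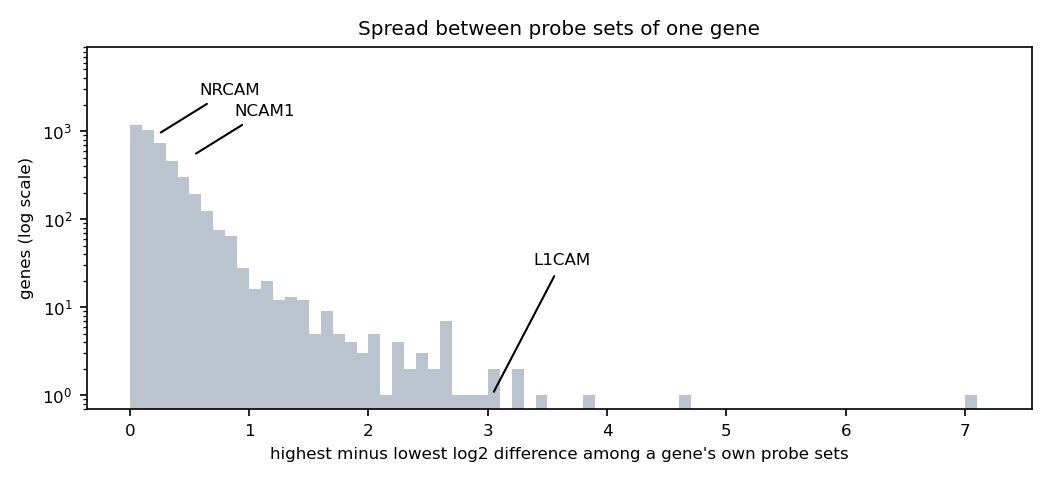
Number of genes (log axis) by the gap between the highest and the lowest log2 difference (WZR6 minus parental) among a gene's own probe sets, for 4310 genes with 2 or more. L1CAM, at 3.03, lies in the sparse right tail, and NCAM1 and NRCAM lie in the bulk at 0.53 and 0.23.

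The genes whose profile over the 6 arrays lay nearest to that of L1CAM 204584_at were sought by Euclidean distance between log2 profiles, each less its own mean. TMPRSS3, a transmembrane serine protease, was nearest at a distance of 0.16. BDKRB1, the bradykinin B1 receptor, followed at 0.22, GSTA1, a glutathione transferase, at 0.25, RADX, a single-stranded DNA binding protein, at 0.36 and CXCL11, an interferon-induced chemokine, at 0.37. Their log2 differences lay between 2.87 for CXCL11 and 3.23 for GSTA1. With 3 arrays a group, such likeness is set mainly by the size of the difference. Other probe sets of GSTA1 and RADX differed by -0.22 and 0.16 and were not called, so a probe set without the gap is found for these 2 genes too. With values under the median raised to the median, the differences were 2.94 for BDKRB1, 1.56 for TMPRSS3, 1.21 for GSTA1, 0.45 for RADX and 0.21 for CXCL11.

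The other members of the L1 family were dim in both groups. CHL1, the close homologue of L1, ran from 3.78 to 4.30 over the 6 arrays, and its groups overlapped, with a difference of 0.09 ± 0.13 (SE). NRCAM, which clusters sodium channels at nodes, was measured by 2 probe sets that ran from 4.59 to 5.07. On 204105_s_at the parental values were 4.83, 5.07 and 4.93 and the WZR6 values 4.78, 4.65 and 4.68, a difference of -0.24 ± 0.07 (SE). The groups did not overlap, but the call was lost in 8 alternatives, among them leaving out parental replicate 2 (-0.18) or 3 (-0.25) and WZR6 replicate 2 (-0.21) or 3 (-0.23). The other NRCAM probe set, 216959_x_at, differed by -0.01 ± 0.13. NFASC, neurofascin, was called on 213438_at, where parental values of 4.01, 4.02 and 3.89 stood against 4.23, 4.20 and 4.25 in WZR6. All 6 values lie below the lower quartile, and the difference, 0.25 ± 0.05 (SE), became 0 once values under the median were raised to the median (the floor), as did that of NRCAM. The other NFASC probe set differed by 0.08 ± 0.09.

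None of the 5 probe sets of the NCAM family was called. NCAM1 had 4 of them. Of these, 209968_s_at gave 6.85, 6.67 and 6.46 in parental cells and 6.72, 6.58 and 6.62 in WZR6, with overlapping groups and a difference of -0.02 ± 0.10 (SE). The other 3 lay below the lower quartile in both groups and differed by -0.27, 0.17 and 0.26, without a shared direction; each of them passed the threshold in 2 alternatives. NCAM2 gave values between 4.02 and 4.27 and a difference of 0.01 ± 0.08, with overlapping groups.

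ALCAM, an activated leukocyte cell adhesion molecule that binds itself and CD6, was slightly higher in WZR6 on both of its probe sets. On 201952_at the parental arrays gave 12.47, 12.49 and 12.44 and the WZR6 arrays 12.70, 12.70 and 12.65. On 201951_at they gave 10.97, 11.01 and 11.09 against 11.24, 11.25 and 11.36. The groups did not overlap on either, and the differences were 0.22 ± 0.05 and 0.26 ± 0.06 (SE), or 1.16-fold (1.08 to 1.25) and 1.20-fold (1.09 to 1.32).

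MCAM, the melanoma cell adhesion molecule also called CD146, was measured by 5 probe sets, all of the types _x_at or _s_at. The only probe set annotated to MCAM alone, 209087_x_at, gave 9.28, 9.11 and 9.25 in parental cells and 9.34, 9.34 and 9.36 in WZR6. These groups did not overlap, but the difference of 0.13 ± 0.06 (SE) was not called, and among probe sets above the median level alone it was. Among the 4 probe sets shared with MIR6756, 211042_x_at stood apart. Its parental values were 10.22, 10.39 and 10.36 and its WZR6 values 11.14, 11.07 and 11.13, a difference of 0.78 ± 0.06, or 1.72-fold (1.56 to 1.90). The remaining 3 shared probe sets differed by 0.08, 0.09 and 0.09 and were not called. A called difference was thus seen on 1 of the 5 probe sets.

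CNTN1, a contactin that partners with NFASC at nodes, gave 5.32, 5.06 and 4.93 in parental cells and 5.31, 5.65 and 5.62 in WZR6. The groups overlapped slightly, with a difference of 0.42 ± 0.13 (SE). The call was lost with the floor and on leaving out parental replicate 2 (0.40) or 3 (0.34) or WZR6 replicate 2 (0.36) or 3 (0.38). NEO1, neogenin, was the member with the largest decrease. Its parental values were 8.49, 8.75 and 8.43 and its WZR6 values 7.32, 7.33 and 7.25, with no overlap. The difference of -1.26 ± 0.09 (SE) made NEO1 2.39-fold lower in WZR6 (2.06 to 2.76), and it ran from -1.32 to -1.16 over 15 alternatives. NEO1 had a single probe set.

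**Figure D3:**
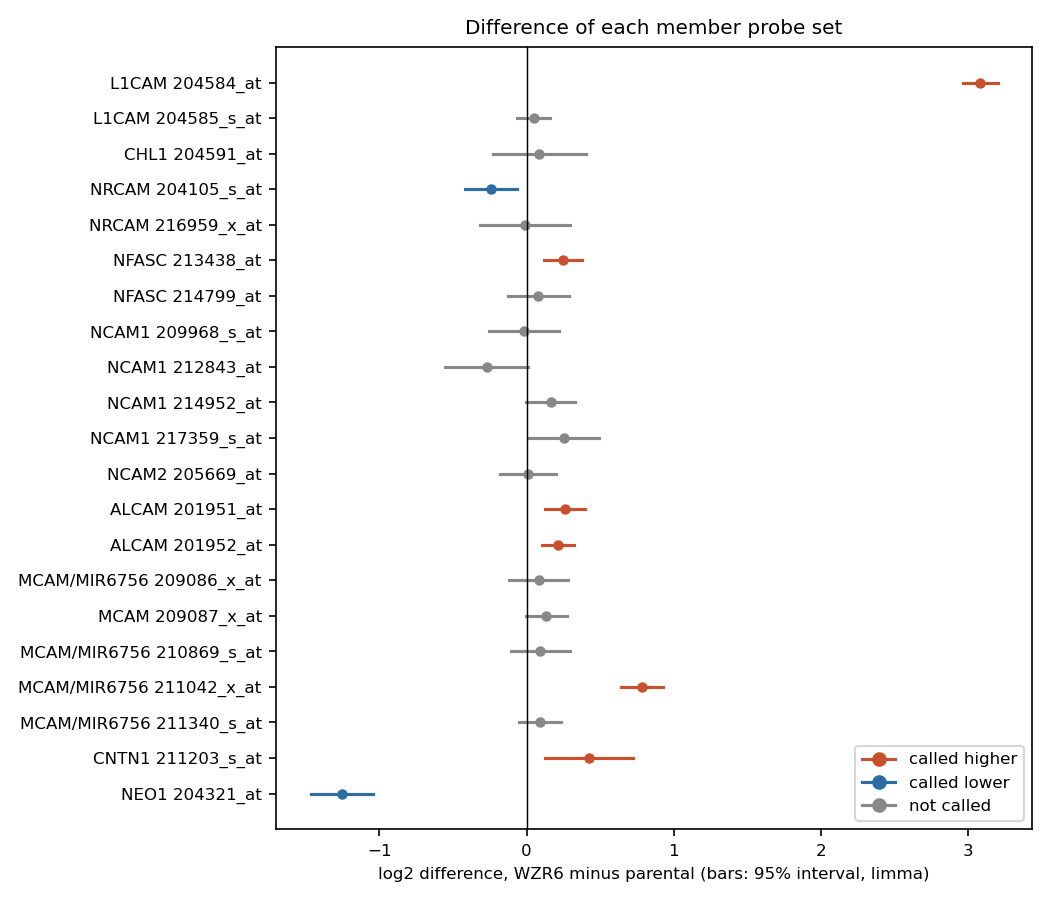
Log2 difference (WZR6 minus parental) of the 21 probe sets with 95% intervals from limma, red where called higher, blue where called lower and grey where not called. L1CAM 204584_at lies at 3.08 and L1CAM 204585_s_at at 0.05, the MCAM and MIR6756 probe set 211042_x_at at 0.78 beside 4 other MCAM probe sets near 0.1, and NEO1 at -1.26.

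The 10 genes lie on 8 chromosomes, and the measured genes next to them on the chromosome were examined, up to 10 on each side in RefSeq order. The counts below stand beside 48.0% of all genes tested that were called, 24.5% higher and 23.5% lower. Around L1CAM on chromosome X, 20 neighbours had a median difference of 0.05, with 5 higher, 2 lower and 13 not called. They ran from -0.83 for ARHGAP4 to 0.75 for TMEM187, against 3.08 for L1CAM. The nearest measured genes on either side, SSR4 and AVPR2, both differed by 0.05. L1CAM and NEO1 were selected on this difference, so how far each lies from its neighbours is given as a description. Around NEO1 on chromosome 15 the median was -0.01, with 4 higher, 4 lower and 12 not called, and the lowest neighbour was LOXL1 at -0.53. The neighbours of NCAM1 on chromosome 11 had a median of 0.23, with 10 of 20 higher, 1 lower and 9 not called, while its probe set 209968_s_at differed by -0.02. Of the 11 measured neighbours of CHL1 near the end of chromosome 3, 5 were lower and 0 higher, and CHL1 differed by 0.09. The neighbours of ALCAM had a median of -0.13 and those of MCAM of -0.07, against differences of 0.22 and 0.13 for the genes themselves.

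**Figure D4:**
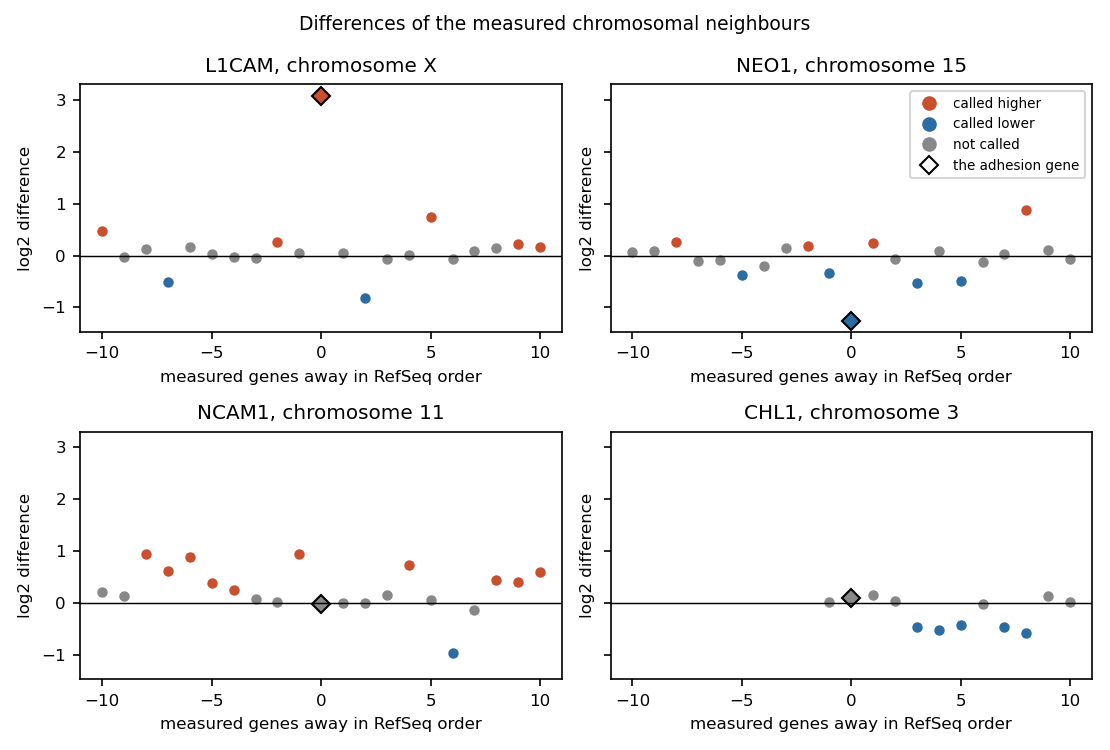
Log2 difference (WZR6 minus parental) of the measured genes up to 10 places on each side of L1CAM, NEO1, NCAM1 and CHL1 in RefSeq order, with the adhesion gene as a diamond at 0 and colours for called higher (red), called lower (blue) and not called (grey). L1CAM at 3.08 and NEO1 at -1.26, both selected on this difference, lie outside the range of their neighbours. NCAM1 at -0.02 lies below most of its own.

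Genes that anchor, cut, bind, modify or regulate these adhesion molecules were read from 6 lists, together with other immunoglobulin adhesion genes. The lists were written with earlier results of these data known, so their counts and adjusted p values are given as a description. Over all genes tested 48.0% were called, 24.5% higher and 23.5% lower, with a median difference of 0.02, and cyclic loess gave 2631 higher and 3098 lower. Of 97 measured genes in the lists 29 rose and 17 fell, the other 51 were not called, and the median difference was 0.07.

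Of the 3 measured ankyrins, which tie the tails of the L1 family to spectrin, ANK3 fell, ANK2 rose, and ANK1 differed by -0.12 ± 0.06 (SE) and was not called. ANK3, ankyrin-G of epithelial lateral membranes and axon initial segments, had a mean of 8.35 ± 0.02 (SD) on the parental and 5.32 ± 0.20 on the WZR6 arrays and fell 8.16-fold (6.94 to 9.59; limma, adjusted p = 1.57e-06). ANK2, ankyrin-B, with means of 5.24 ± 0.06 and 6.99 ± 0.03, rose 3.38-fold (3.13 to 3.66; limma, adjusted p = 8.1e-07). For both, the groups did not overlap. Another ANK3 probe set was also called lower, at -1.64, and the third differed by -0.34. The other 2 ANK2 probe sets differed by 0.06 and 0.09, its values lay below the median, and its call was lost with the floor. As means of their probe sets ANK3 differed by -1.67 and ANK2 by 0.64. The difference of ANK3 was -0.97 with the floor. RDX, radixin, which links membrane proteins to actin, rose by 0.47 ± 0.04 (SE) and SPTAN1, the alpha chain of spectrin, by 0.45 ± 0.05. EZR, ezrin, differed by 0.04 ± 0.04. Of the 11 measured anchors 6 rose, 1 fell and 4 were not called, with a median of 0.21.

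Proteases that release the ectodomain or cut the remaining stub were called in both directions, 3 higher, 3 lower and 4 not called among 10 measured, with a median of 0.07. Their split was 5 higher and 2 lower with median centring, and 4 and 2 with quantile normalization or the replicate block. ADAM10 and ADAM17, the metalloproteases known to shed L1CAM, differed by 0.03 ± 0.05 and -0.07 ± 0.04 (SE; limma, adjusted p = 0.678 and 0.203). BACE2, a membrane aspartyl protease, rose by 0.68 ± 0.06, and the gamma-secretase subunits NCSTN and PSENEN by 0.49 ± 0.05 and 0.25 ± 0.06, while PSEN2, a catalytic subunit of the same complex, fell by 0.49 ± 0.07.

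Among 22 measured ligands and co-receptors, 5 rose, 4 fell and 13 were not called, with a median of 0.01. NRP1 and NRP2, the neuropilins that join L1CAM or other partners in receptors for semaphorins, and SEMA3A, the semaphorin ligand of NRP1, all fell. NRP1 averaged 10.82 ± 0.09 (SD) on the parental arrays, against 9.09 ± 0.04, and was 3.32-fold lower in WZR6 (3.01 to 3.67; limma, adjusted p = 2.04e-06). NRP2 fell 2.74-fold (2.21 to 3.39), a call lost with the floor, and SEMA3A 1.95-fold (1.77 to 2.15). As means of their probe sets NRP1 differed by -0.93 and NRP2 by -0.73. FGFR1, a growth factor receptor that NCAM1 and L1CAM can activate, rose by 0.61 ± 0.06 (SE) on the probe set that stands for it, 211535_s_at. Of its 6 probe sets 4 were not called, and without _x_at and _s_at probe sets it differed by 0.18 and was not called. Of the integrins that bind L1CAM, ITGA5 rose by 0.59 ± 0.05, whereas ITGB1 differed by -0.03 ± 0.06 and ITGAV by -0.17 ± 0.07, neither called. Other integrin chains in the list, such as ITGB3, are not given here.

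FYN, the SRC family kinase that NCAM1 and L1CAM signal through, rose on all 3 of its probe sets. The parental arrays gave 8.33, 8.32 and 8.42 and the WZR6 arrays 10.20, 10.21 and 10.24, which is 3.63-fold (3.36 to 3.92; limma, adjusted p = 5.64e-07). SRC rose by 0.58 ± 0.05 (SE) on 1 probe set and by 0.29 as the mean of its 3. RANBP9, a scaffold that binds the L1CAM tail, rose by 0.57 ± 0.11. CTTN, the actin-binding cortactin, fell by 0.99 ± 0.05, and by 0.56 as the mean of its probe sets. The polysialyltransferases of NCAM1, ST8SIA2 and ST8SIA4, differed by 0.16 ± 0.11 and 0.12 ± 0.15, with all means below the lower quartile. In this list of 12 measured genes 6 rose, 1 fell and 5 were not called, with a median of 0.17.

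Of 10 genes reported to regulate L1CAM transcription, 2 rose, 4 fell and 4 were not called, with a median of -0.04. SNAI2, the repressor Slug, rose 2.00-fold (1.84 to 2.17; limma, adjusted p = 1.02e-05), with means of 9.90 ± 0.06 (SD) and 10.90 ± 0.04, and ZEB1 rose by 0.52 ± 0.05 (SE). HIF1A fell by 0.44 ± 0.07 and TGFB1 by 0.35 ± 0.08, the latter call being lost with the floor, as the mean of its probe sets (-0.18) and without _s_at probe sets (-0.02). REST, the repressor of neuronal genes, differed by -0.07 ± 0.12 and was not called. CTNNB1, beta-catenin, fell by 0.30 ± 0.07.

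Other immunoglobulin adhesion genes changed in both directions, with 7 of 32 higher, 4 lower and 21 not called, and a median of 0.04. MPZL2, an epithelial adhesion molecule related to myelin protein zero, fell 16.3-fold (14.4 to 18.5; limma, adjusted p = 2.44e-07), with means of 10.07 ± 0.08 (SD) and 6.04 ± 0.13 and both of its probe sets called. Its difference was -4.03, and -2.70 with the floor or -3.10 as the mean of its probe sets. ICAM2 fell 3.03-fold (2.75 to 3.35) and NECTIN3, a nectin of adherens junctions, 2.21-fold (1.83 to 2.66). VCAM1, a receptor for leukocyte integrins, rose from 4.79, 4.70 and 4.69 on the parental arrays to 7.63, 6.78 and 7.41 on the WZR6 arrays, or 5.84-fold (4.18 to 8.15; limma, adjusted p = 7.26e-05). WZR6 replicate 2 was the lowest of the WZR6 values, and the call of VCAM1 was lost with the floor (0.10). Other contactins, CNTN2, CNTN5 and CNTN6, and the netrin receptor DCC, a relative of NEO1, differed by -0.01, 0.07, 0.14 and -0.07 and were not called.

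**Figure D5:**
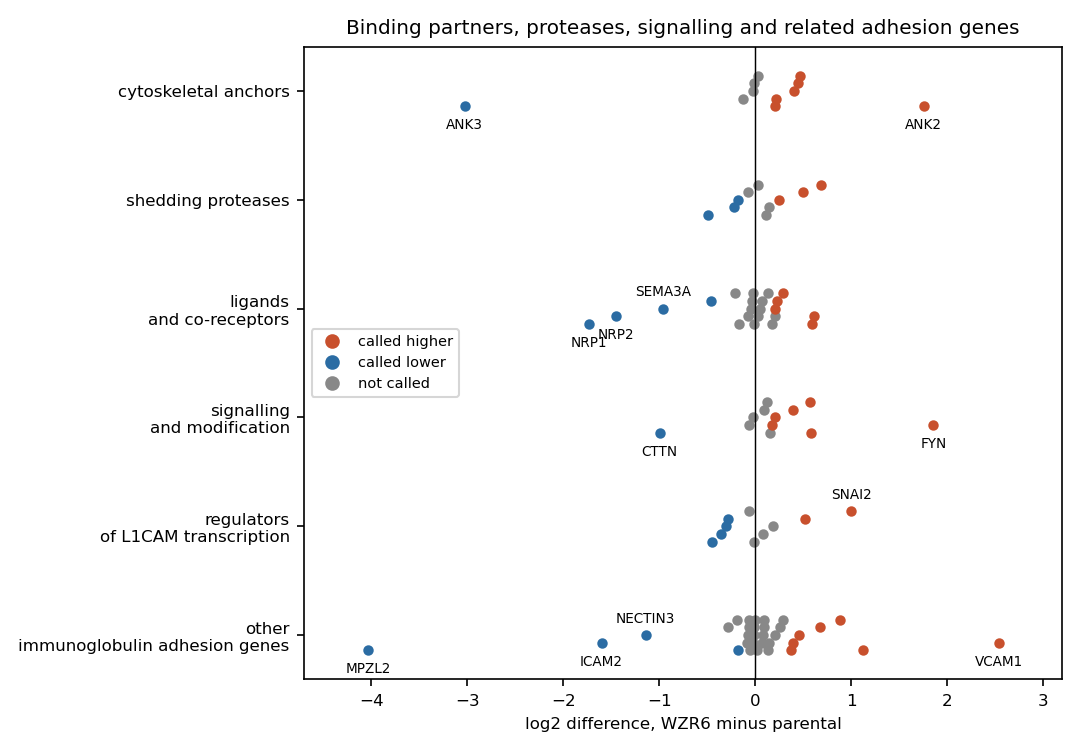
Log2 difference (WZR6 minus parental) of 97 measured genes in 6 lists, 1 point per gene, red where called higher, blue where called lower and grey where not called; vertical offsets within a list only separate points. ANK3 at -3.03 and ANK2 at 1.76 lie at opposite ends of the anchors, FYN lies at 1.86, and MPZL2 at -4.03 and VCAM1 at 2.55 bound the other immunoglobulin adhesion genes.

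Markers of cell types that carry these adhesion molecules were read on the same arrays. For scale, 24.5% of all genes tested were called higher and 23.5% lower. The culture is bulk, so a lower share of cells with a transcript and less of it per cell cannot be told apart. Of 10 measured neuronal markers 0 rose and 2 fell, SYT1 by 1.67 and INA by 0.86 (the call of INA was lost with the floor). The summed intensity of the list was 6434 to 7008 on parental and 6376 to 6553 on WZR6 arrays. Neuroendocrine markers rose for 1 of 8 and fell for 3 (sums 1002 to 1045 and 779 to 818), and Schwann or melanocytic markers rose for 1 of 6 and fell for 1 (1514 to 1700 and 1133 to 1307). Endothelial markers rose for 2 of 8, CDH5 by 0.89 and CD34 by 0.25 (478 to 505 and 521 to 553), and both calls were lost with the floor. Leukocyte markers rose for 0 of 7 and fell for 2 (579 to 637 and 358 to 390), and fibroblast markers rose for 1 of 8 and fell for 2 (2211 to 2396 and 1279 to 1298). Log2 differences ran from -1.37 to 0.29 for leukocyte and from -3.00 to 0.66 for fibroblast markers. Of 9 epithelial and lung markers 8 fell, with sums of 48041 to 48588 and 26819 to 27483. Their median log2 difference was -1.71, with a range of -6.26 to -0.12. Such sums are set mainly by the brightest genes of a list. The lowest intensity in the table was 9.87, so no marker stood at 0, and the part of any of these markers in the values of L1CAM or NEO1 was not tested.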

How the data were processed

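Gene expression was measured on 6 oligonucleotide arrays, 3 of parental and 3 of WZR6 cells, grouped by title. The deposited table holds linear intensity values made by the authors with RMA, per the submitters' processing notes; the sources used here name no version of it. They were put on the log2 scale without a pseudocount and not normalized again. Of 22277 probe sets 62 controls were left out. The platform annotation named 1 gene for 19064 of the 22215 probe sets tested, several for 1043 and none for 2108; 19052 were matched by Entrez identifier to RefSeq (GRCh38.p14). A gene was represented by its probe set with the highest mean. limma 3.58.1 (R 4.3.3) was fitted over all probe sets and over 11963 genes, two-sided; errors are moderated standard errors and intervals have 95% confidence. The model was tested on simulated data.

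Members and lists were chosen with earlier results of these data known. In each list up to 4 called genes with the largest differences are named, and the 5 genes nearest to L1CAM; other genes named, and the neighbour and probe set comparisons, were chosen after their values were seen. Of 118 listed genes 21 were not analysed here. Alternatives were cyclic loess, median centring, quantile normalization, 2 level filters, a floor, an intensity trend, the replicate number as a block, probe set type, averaging the probe sets of a gene, and leaving out each array. Array number limits precision. Figures used matplotlib 3.10.9.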

Additional observations from a re-analysis of the deposited data

How the results depend on the processing

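The 8 calls among the probe sets of the adhesion genes became 5 with the floor at the median and 5 without _x_at and _s_at probe sets, which leaves 10 to test. Without those types 4245 probe sets and 3487 genes were called, since fewer were tested, and 2 of the proteases in place of 6. Leaving out each array gave 6 to 8 calls among the adhesion probe sets, 7759 to 8415 over all probe sets, 5043 to 5441 over genes and 42 to 45 in the 6 lists. Deviations of same-numbered arrays correlated at -0.01 to 0.23, and those of differently numbered arrays at -0.24 to 0.13. These are too few values to decide whether the replicate numbers pair the samples. The replicate block gave 7 calls in place of 8, 9029 over all probe sets and 5729 over genes. With it the calls of CNTN1 and NRCAM were lost and 1 NCAM1 probe set was gained. Under cyclic loess the balance of calls turned, to 4300 probe sets higher and 4776 lower and 2631 genes higher and 3098 lower, and median centring gave 5721 and 3826 probe sets and 3427 and 2497 genes. No probe set could be tested for NRCAM, MCAM or CNTN1 without _x_at and _s_at types. Signal near background limits CHL1, NRCAM, NFASC, NCAM2 and most of NCAM1. Both means of CNTN1 also lay below the median of all values, and its call was lost with the floor.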
